A study of Mus musculus with 6 samples.

Results

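Control-open windows that closed with RANKL are stretches of 200 bp in which control organoids had high chromatin accessibility and RANKL-treated organoids had much less. They were chosen on measured values: each count was scaled by its library's total to CPM (counts per 1e6 counts), and a window was taken when its RANKL mean was at most 1/3 of its control mean, its control mean was at least 40 CPM and every control library had at least 25 CPM. The rule found 215 windows among 55056, or 3.17% of the 6780 windows that met both control conditions. Those 6780 are called control-open here, and the 6565 of them that did not close are called kept.

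Accessibility was measured with bulk ATAC-seq (Tn5 transposase cuts and tags open DNA) in mouse small intestinal organoids, epithelial cultures that grow from crypt stem cells in a gel. RANKL-treated organoids (n = 3) received 3 µM CHIR99021 and 1.5 mM valproic acid for 3 days, plain ENR medium (EGF, Noggin, R-spondin 1) for 1 day and 100 ng/ml RANKL for 6 days. Control organoids (n = 3) grew in ENR medium and were taken at day 6, and the protocol text does not say whether they had the CHIR99021 and valproic acid step. Their library names begin with CVENR, an abbreviation left without explanation, so which it was is unknown. If controls lacked that step, RANKL and the step cannot be told apart in a difference between the groups. All libraries came from a single line, line26 wild type, Lgr5GFPDTR/+, derived from a female mouse in which a GFP and diphtheria toxin receptor cassette sits at Lgr5, and each replicate was an independent differentiation experiment. In a bulk sample, fewer cells of a type and less open chromatin per cell cannot be told apart.

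RANKL is a TNF family cytokine made by stromal cells beneath the epithelium that covers lymphoid follicles of the gut, and it binds RANK on epithelial cells. It drives crypt-derived cells to become microfold (M) cells, which carry antigens across the epithelium. Open windows at gene starts are usually promoters. Open windows far from genes are often enhancers, which differ between cell types more than promoters do, and an enhancer need not act on the gene that lies nearest. CHIR99021 inhibits GSK3 and so activates Wnt signalling, and valproic acid inhibits histone deacetylases.

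Library totals were 322173 to 828445 counts with RANKL and 455083 to 976881 in controls, so 3 counts were worth 3.07 to 9.31 CPM. Windows within 1 kb of epithelial genes, which checked the tissue, were present for 8 of 10 marker genes and summed to 313 to 371 CPM in RANKL libraries and 348 to 389 CPM in control libraries. Krt8 and Krt20 had none. Haematopoietic markers (0 of 6) and endothelial markers (0 of 4) had no window there, and mesenchymal markers had windows for 2 of 6 genes, summing to 12.9 to 19.3 CPM with RANKL and 21.7 to 30.7 CPM in controls. None of these windows was among the closed ones.

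A closed window lay on a promoter of the RefSeq table (250 bases before to 50 bases after a gene start, GRCm38.p6) in 7 of 215 cases (3.26%), against 48.9% of kept windows. The promoters with at least 150 bases inside a closed window are printed because they are the closed sequences that the reference tables hold. They belong to Pla2g4a (chr1:149922390-149922689, minus strand), Gm34845 (chr13:114923506-114923805, plus strand), Ttc33 (chr15:5185310-5185609, plus strand), Gm41865 (chr19:54154627-54154926, plus strand) and E130215H24Rik (chr2:150667244-150667543, plus strand). Each is written 5′ to 3′ on the gene's strand, and capitals mark the bases that lie inside the closed window.
Pla2g4a: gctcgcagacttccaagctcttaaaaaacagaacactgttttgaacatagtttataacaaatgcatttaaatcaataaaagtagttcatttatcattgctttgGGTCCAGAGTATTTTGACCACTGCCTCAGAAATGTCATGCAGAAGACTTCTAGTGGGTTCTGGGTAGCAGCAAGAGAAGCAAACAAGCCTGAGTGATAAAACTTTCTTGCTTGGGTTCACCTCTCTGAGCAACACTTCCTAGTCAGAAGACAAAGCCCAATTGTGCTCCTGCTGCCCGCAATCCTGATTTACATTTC
Gm34845: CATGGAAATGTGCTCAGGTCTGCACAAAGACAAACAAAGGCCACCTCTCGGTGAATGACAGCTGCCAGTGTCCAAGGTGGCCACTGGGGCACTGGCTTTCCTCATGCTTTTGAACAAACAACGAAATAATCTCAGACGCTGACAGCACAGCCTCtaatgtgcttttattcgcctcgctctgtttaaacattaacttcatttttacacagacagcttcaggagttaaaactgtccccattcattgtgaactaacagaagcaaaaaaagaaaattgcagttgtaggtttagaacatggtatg
Ttc33: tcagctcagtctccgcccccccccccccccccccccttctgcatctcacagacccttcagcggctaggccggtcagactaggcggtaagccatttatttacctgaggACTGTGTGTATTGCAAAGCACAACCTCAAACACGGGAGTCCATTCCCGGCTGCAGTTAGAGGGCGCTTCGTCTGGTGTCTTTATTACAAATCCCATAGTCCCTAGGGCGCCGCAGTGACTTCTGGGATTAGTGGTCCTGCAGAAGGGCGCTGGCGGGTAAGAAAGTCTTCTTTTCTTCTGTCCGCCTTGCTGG
Gm41865: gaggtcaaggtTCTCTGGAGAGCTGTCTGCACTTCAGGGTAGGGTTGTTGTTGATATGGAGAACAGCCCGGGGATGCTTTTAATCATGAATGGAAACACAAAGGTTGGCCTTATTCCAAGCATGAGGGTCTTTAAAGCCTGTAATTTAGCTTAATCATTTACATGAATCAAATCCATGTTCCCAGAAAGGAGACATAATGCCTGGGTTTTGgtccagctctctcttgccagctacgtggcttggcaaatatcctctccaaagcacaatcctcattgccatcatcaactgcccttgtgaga
E130215H24Rik: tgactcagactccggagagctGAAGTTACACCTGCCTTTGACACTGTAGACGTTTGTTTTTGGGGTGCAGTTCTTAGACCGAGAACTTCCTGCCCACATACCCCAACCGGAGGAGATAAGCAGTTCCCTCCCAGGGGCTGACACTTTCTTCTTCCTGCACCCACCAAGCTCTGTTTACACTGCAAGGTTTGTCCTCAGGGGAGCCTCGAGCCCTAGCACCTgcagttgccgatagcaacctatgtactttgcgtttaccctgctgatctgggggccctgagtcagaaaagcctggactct

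Pla2g4a encodes a cytosolic phospholipase A2, which frees arachidonic acid from membranes. Its printed promoter lies inside the annotated gene, and the closed window there is 38804 bp from the nearest gene end. That window had 15.5, 4.29 and 14.5 CPM in RANKL replicates 1, 2 and 3, against 43.5, 35.8 and 44.0 CPM in control replicates 1, 2 and 3. The window at Ttc33, a gene for a tetratricopeptide repeat protein, had 9.31, 19.3 and 18.1 CPM with RANKL and 48.9, 59.4 and 48.3 CPM in controls. The groups did not overlap in either window. The same held in all 215 closed windows, which were chosen on these values, and in 27.3% of control-open windows.

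Gm34845, Gm41865 and E130215H24Rik are named by the table only. The Gm34845 window, inside Itga2, the collagen-binding integrin alpha 2, had 18.6, 19.3 and 29.0 CPM with RANKL and 74.9, 57.3 and 94.5 CPM in controls. The Gm41865 window had 3.10, 12.9 and 8.45 CPM with RANKL and 42.4, 49.1 and 48.3 CPM in controls. The E130215H24Rik window lies inside Acss1, the mitochondrial acetyl-CoA synthetase gene, 876 bp from its end, and had 24.8, 15.0 and 18.1 CPM with RANKL and 63.0, 52.2 and 81.3 CPM in controls. RANKL replicate 1 was highest in the last window and lowest in the one before it.

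The 5 printed promoters were searched on both strands for 21 motifs. These were the HNF4 core CAAAGTC, the motif of GATA factors AGATAA, CDX with TTTATGG or also TTTATTG, TCF/LEF with ATCAAAG, SOX with ACAATGG, HNF1 with TTAATNATT, FOXA with TGTTTAC, KLF with GGGNGTGG, ETS with AGGAAGT and AP-1 with TGANTCA. The others were NF-kB with GGGANNNCC, the E-boxes CAGCTG and also CAGATG, ONECUT with ATCGATN or also ATCAATA, RUNX with TGTGGTT, the IRF motif, TEAD with GGAATG, CEBP with TTGNNNAA and the CTCF core CCCTC. Matches that overlap were each counted. The ETS core AGGAAGT lay inside the closed bases of Pla2g4a and E130215H24Rik, and 9.35% of all promoters in the table hold it. The HNF1 motif TTAATNATT (1.47% of promoters) and the AP-1 motif TGANTCA (7.81%) lay inside the closed bases of Gm41865. The GATA motif AGATAA (11.2%) and the FOXA motif TGTTTAC (3.65%) lay inside those of E130215H24Rik, and the TEAD motif GGAATG (14.7%) inside those of Ttc33. The E-box CAGCTG (16.3%) and the CEBP motif TTGNNNAA (36.7%) lay inside those of Gm34845, and the CTCF core CCCTC (66.0%) inside those of Ttc33, Gm41865 and E130215H24Rik. With 5 sequences these are descriptions of the printed letters only.

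Across the closed windows the RANKL mean had a median of 13.6 CPM (3.68 to 36.7), and the control mean a median of 51.5 CPM (40.01 to 122.2). These values chose the windows and are given without a test. The median window was 3.72 times lower with RANKL, 90 windows were at least 4 times lower, 42 at least 5 times and 5 at least 10 times. The lowest and highest folds were 3.01 and 14.7. All 215 passed the filter on low counts, and the edgeR log2 fold changes ran from -3.84 to -1.31.

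By library, the median closed window had 12.4, 12.9 and 15.7 CPM in RANKL replicates 1, 2 and 3, against 51.0, 51.2 and 54.9 CPM in control replicates 1, 2 and 3. The median over all 55056 windows was 9.31, 10.7 and 12.1 CPM in those RANKL libraries and 11.9, 11.3 and 11.0 CPM in those controls. The typical closed window thus stood slightly above the typical window of the table with RANKL. In RANKL replicates 1, 2 and 3 the closed windows at or below their library's all-window median numbered 97, 97 and 69, and in each control library there were 0. Closed windows held 0.256%, 0.297% and 0.345% of the counts in RANKL libraries and 1.16%, 1.15% and 1.27% in control libraries.

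**Figure D1:**
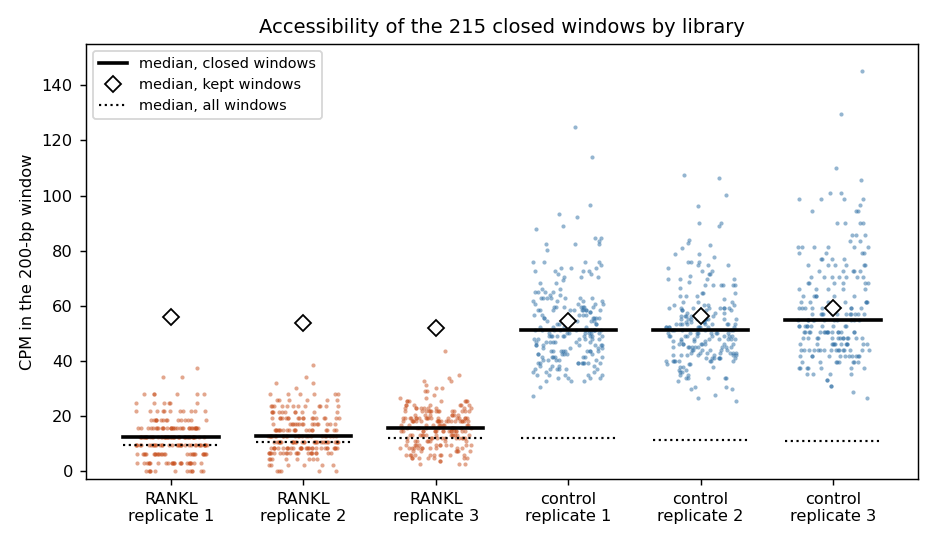
Accessibility in CPM (vertical axis) of the 215 closed windows in each of the 6 libraries (points), with the closed median (bar), the kept median (diamond) and the median of all windows (dotted). Closed medians were 12.4 to 15.7 CPM in RANKL libraries and 51.0 to 54.9 CPM in controls, while kept medians were 51.9 to 55.9 CPM and 54.3 to 59.3 CPM. The groups were chosen to differ.

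Few closed windows were empty. A count of 0 occurred in 12, 5 and 0 of them in RANKL replicates 1, 2 and 3, and in no closed window were all RANKL libraries at 0. A closed window had a median of 23 counts summed over the RANKL libraries and 121 over the controls. The coefficient of variation between libraries had a median of 44.1% with RANKL and 15.4% in controls. RANKL replicate 3 was the highest of its group in 105 windows, replicate 2 in 67 and replicate 1 in 43, and control replicate 3 was the highest of its group in 111.

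Every RANKL library lay below every control library in all 215 closed windows. Over the control-open windows this held for 1850 of 6780 (27.3%), and over the kept ones for 24.9%. The edgeR quasi-likelihood test with Benjamini-Hochberg adjustment put 2169 of 21618 tested windows lower (10.0%) and 2166 higher (10.0%), and all 215 closed windows were among the lower ones. As the selection used this contrast, nothing is read from that count. Matched by experiment number, the median ratio of RANKL to control CPM was 0.214, 0.254 and 0.284 in experiments 1, 2 and 3.

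Libraries that took no part in the selection gave a separate reading of the drop. A RANKL and a control library were left out together, the rule was applied to the other 4, and the ratio was read between the 2 left out, so that neither side of it had chosen the windows. Over the 9 such pairs, which share libraries, the rule chose 207 to 302 windows. The left-out RANKL library was at or below 1/2 of the left-out control in 69.9% to 82.6% of them, against 6.28% to 12.7% of the kept windows. The median ratio was 0.269 to 0.402 in chosen windows and 0.855 to 1.01 in kept windows.

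Without RANKL replicate 1 and control replicate 1, the 227 chosen windows had medians of 15.5 CPM in that RANKL library and 46.7 CPM in that control. Kept windows had medians of 55.9 CPM and 53.2 CPM there. The limit of 1/3 was met between left-out libraries in 35.4% to 59.4% of chosen windows, and 2 to 9 windows a pair were at least as high with RANKL as in the control. Of the 215 closed windows, 94 were chosen whichever single library was left out.

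Just inside the threshold, windows nearest Cox7c, Afap1l1, Tox and Mtcl1 had RANKL to control ratios of 0.331 to 0.332. Just outside it, windows nearest Deptor, Foxq1, Nrip1, Nfia and Aadacl4fm2 had ratios of 0.335 to 0.338 and count as kept. The threshold cuts through a continuous range.

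Few closed windows lay at gene ends, and many lay far from genes. Their place was not used in the selection. Only 9 of them (4.19%) were within 1 kb of the nearest protein-coding gene's start or end, against 57.5% of kept windows and 18.7% of all windows. Inside a gene body but more than 1 kb from its ends were 81 (37.7%), against 22.4% of kept windows and 37.7% of all windows, so the closed share there equalled that of the table. Outside genes at 1 to 50 kb were 54 (25.1%), against 12.2% of kept windows and 24.0% of all windows. Farther than 50 kb were 70 (32.6%), against 7.66% of kept windows and 19.5% of all windows. Against the table as a whole, closed windows were thus fewer at gene ends and more frequent beyond 50 kb. The remaining window is on an unplaced contig.

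Read the other way, the share of control-open windows that closed was 0.238% within 1 kb of a gene end, 5.21% inside gene bodies, 6.32% at 1 to 50 kb outside genes and 12.2% beyond 50 kb. More than 1 kb from a gene end, 205 of 2981 control-open windows closed (6.88%). The order held at control means of 40 to 60 CPM, where the shares were 0.341%, 5.91% and 6.50%, and 45 of 361 beyond 50 kb. At 60 to 100 CPM they were 0.141%, 4.36%, 6.40% and 12.6%. At 100 CPM or more, 2 of 29 windows beyond 50 kb closed, and 0 of 313, 0 of 57 and 0 of 19 in the nearer classes.

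**Figure D2:**
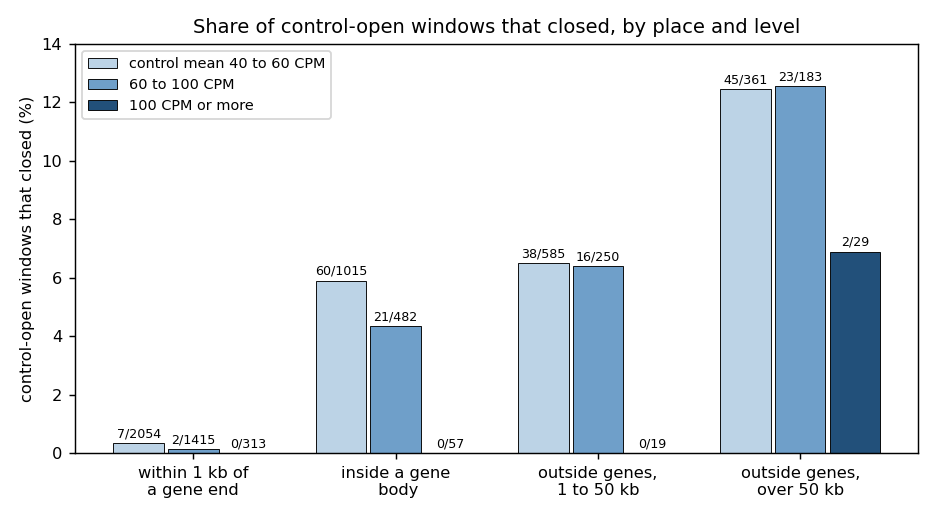
Percentage of control-open windows that closed with RANKL (vertical axis, from 0) by place relative to protein-coding genes, in bars for 3 ranges of control mean CPM, with closed over control-open windows printed above each bar. In the 2 lower ranges the share within 1 kb of a gene end was 0.341% and 0.141%, and beyond 50 kb 45 of 361 and 23 of 183 closed.

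The share of closed windows more than 1 kb from a gene end was 95.8% (95% Wilson interval 92.2% to 97.8%, which treats windows as independent), against 42.4% of kept windows and 81.3% of all windows. The median distance to the nearest gene end was 41586 bp for closed windows, 319 bp for kept windows and 17690 bp for all windows. A distance over 100 kb was found for 64 closed windows (29.8%) and 6.15% of kept windows. Closed windows were thus farther from gene ends than the table as a whole, not only than the kept windows, over which promoters weigh. These distances also count windows inside gene bodies, which hold 37.7% of the closed ones. By chromosome, the closed share of control-open windows ran from 1.36% on chromosome 19 to 4.95% on chromosome 4, apart from chromosome Y, which had 1 control-open window and no closed one.

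The 9 closed windows at gene ends were at Rassf9, Wls, Lor, Tmc1, Acss1, Vmn2r29, Epc1, Ttc33 and Kif12, and those given in full were picked after their values were seen. Wls encodes the carrier that brings Wnt ligands to the cell surface, and its window, 771 bp inside the gene, had 9.31, 4.29 and 24.1 CPM with RANKL and 56.5, 34.8 and 54.9 CPM in controls. Kif12 encodes a kinesin motor, and its window, 322 bp outside the gene, had 15.5, 19.3 and 10.9 CPM with RANKL and 53.2, 45.0 and 44.0 CPM in controls. Rassf9 had the strongest drop of the 9, 5.79 times, with 6.21, 8.57 and 9.66 CPM with RANKL and 51.0, 55.3 and 35.2 CPM in controls. The groups stood apart in all of these, as in every closed window, and these values chose the windows.

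The 12 windows with the lowest ratio were nearest Rgmb, Olfr948, Gm5294, Vapb, Ambn, Ccer1, Col8a1, Gm5885, Eml1, Cyria, Fam217b and Has1. The lowest of all was at chr17:15939191-15939390, 108044 bp outside Rgmb, which encodes a BMP co-receptor. It had 3.10, 6.43 and 2.41 CPM in RANKL replicates 1, 2 and 3, against 53.2, 58.3 and 63.7 CPM in control replicates 1, 2 and 3. With 1, 3 and 2 reads, the RANKL libraries were near the limit of what their depth can resolve there.

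The window at chr9:39327855-39328054, 8342 bp outside the olfactory receptor gene Olfr948, had 6.21, 6.43 and 6.04 CPM with RANKL and 63.0, 63.5 and 98.9 CPM in controls. The window 53928 bp outside Gm5294 had 6.21, 0 and 4.83 CPM with RANKL and 58.7, 34.8 and 37.4 CPM in controls. Inside Vapb, which encodes a tether between the endoplasmic reticulum and other membranes, the values were 0, 6.43 and 7.24 CPM with RANKL and 46.7, 51.2 and 57.1 CPM in controls. The other 8 windows had RANKL means of 4.74 to 9.89 CPM and control means of 41.3 to 91.3 CPM. All 12 were at least 8 times lower with RANKL.

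The 5 closed windows with the highest control mean were nearest Csmd3, Ptprd, Cadm2, Olfm4 and Col8a1. The Csmd3 window, 956900 bp outside that gene, had 27.9, 38.6 and 43.5 CPM with RANKL and 114, 107 and 145 CPM in controls. The Ptprd window had 34.1, 27.9 and 32.6 CPM with RANKL and 125, 106 and 130 CPM in controls. Both stayed above the all-window median in every RANKL library, so a window could meet the rule and still be open. The Col8a1 window had 6.21, 15.0 and 8.45 CPM with RANKL and 93.4, 83.9 and 96.7 CPM in controls, and the Cadm2 window had 21.7, 8.57 and 10.9 CPM with RANKL and 82.5, 96.2 and 109.9 CPM in controls. Each of these was below the all-window median in 2 of the 3 RANKL libraries. The window nearest Olfm4, a crypt stem cell gene, is 1835665 bp from it, so the name gives its position only, and had 37.2, 15.0 and 20.5 CPM with RANKL and 82.5, 89.1 and 105.5 CPM in controls.

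**Figure D3:**
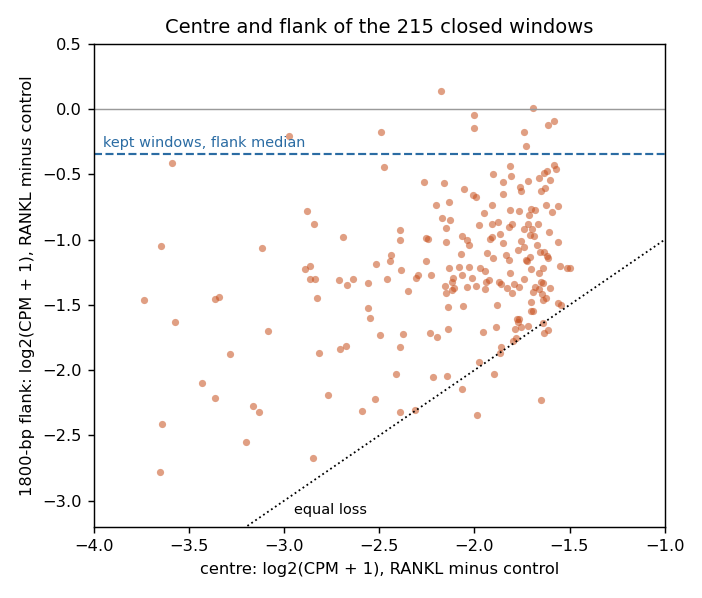
Difference of mean log2(CPM + 1), RANKL minus control, in the central 200 bp (horizontal axis) and in the 1800 bp around it (vertical axis) for each closed window (point), with equal loss (dotted) and the flank median of kept windows (dashed, -0.34). The flank lies above the line of equal loss in 208 of 215 windows. The rule requires a low RANKL centre and sets no limit on the flank, which in itself places points above that line. How much of the 208 this makes was not tested.

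The drop extended beyond the 200 bp that chose the windows. In the 1800 bp on the sides of each window, read from the 2-kb table and scaled to the flank total of each library, the median closed window had 17.8, 16.5 and 17.6 CPM in RANKL replicates 1, 2 and 3, against 41.5, 40.1 and 38.5 CPM in control replicates 1, 2 and 3. On the log2(CPM + 1) scale the flank difference had a median of -1.23 (quartiles -1.50 and -0.89), against -0.34 for kept windows and 0.17 for all windows. At the centre the medians were -1.94 for closed, -0.14 for kept and -0.05 for all windows. Flank reads come from the same libraries and the same contrast, so they are a description.

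The flank mean was lower with RANKL in 212 of 215 closed windows (98.6%), against 79.7% of kept windows. It was at most 1/2 of the control mean in 147 (68.4%, kept 6.90%) and at most 1/3 in 44 (20.5%, kept 0.640%). Every RANKL library lay below every control in the flank of 187 closed windows (87.0%), against 41.1% of kept windows. Scaling the flank by the 200-bp totals instead raised the median of all windows by 0.29, and the closed median minus the kept median was -0.92, against -0.89 with flank totals. The distance between closed and kept flanks thus held under both scalings.

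Signal around closed windows was less centred with RANKL. Of the reads in the 2 kb around closed windows, the central 200 bp held 26.3%, 27.2% and 31.1% in RANKL replicates 1, 2 and 3, against 44.5%, 44.1% and 47.0% in control replicates 1, 2 and 3. An even spread would give 10%. Kept windows had 41.8%, 39.4% and 39.6% in RANKL libraries and 41.4%, 40.7% and 42.2% in control libraries. Over all windows of the table the share was 33.9% to 36.5% in RANKL libraries and 39.9% to 41.0% in control libraries. A lower central share with RANKL was thus not particular to closed windows, though the gap was wider there. Selection on a low RANKL centre lowers the share of closed windows in itself, and how much of the gap this makes was not tested. The RANKL share of closed windows stayed above an even spread in all 3 libraries. The lowest bound of a 95% Wilson interval, which covers counting error only, was 24.8%.

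**Figure D4:**
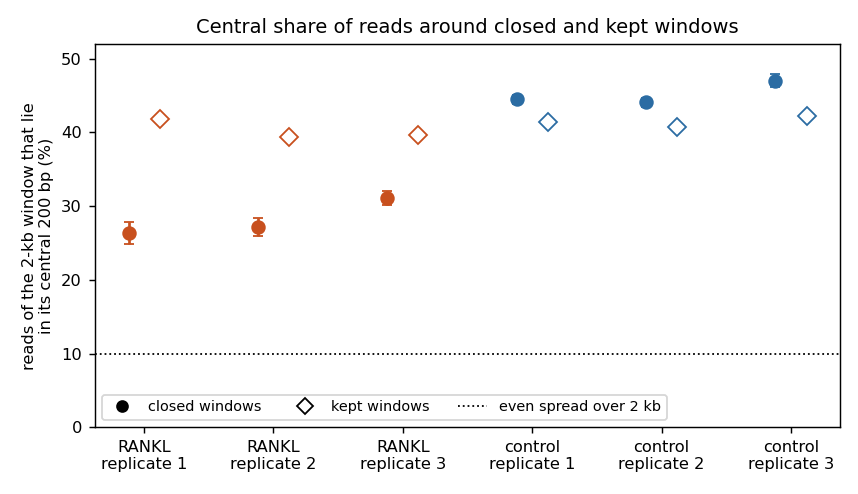
Percentage of the reads of the 2-kb windows that lay in the central 200 bp (vertical axis, from 0), in each library, for closed windows (filled circles) and kept windows (open diamonds), with 95% Wilson intervals and the 10% of an even spread (dotted). Closed windows had 26.3% to 31.1% with RANKL and 44.1% to 47.0% in controls, and kept windows 39.4% to 41.8% and 40.7% to 42.2%.

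Flanks differed between closed windows. Among the 203 with a control flank mean of at least 20 CPM, the largest flank drops were at the Rgmb window (log2 difference -2.78), inside Plekhg1 (-2.67) and 342754 bp outside Tent5a (-2.55). The flank of the Rgmb window had 8.90, 12.1 and 3.39 CPM with RANKL and 64.1, 50.3 and 54.7 CPM in controls, so the whole 2 kb lost signal. The smallest drops were inside Aqp4 (-0.09), at 224821 bp from Arid1b (-0.04) and at 436062 bp from Med13l (0.14). The Arid1b window had 12.4, 12.9 and 4.83 CPM with RANKL and 42.4, 25.6 and 59.3 CPM in controls at its centre, while its flank had 17.8, 25.3 and 18.3 CPM with RANKL and 25.6, 21.7 and 16.3 CPM in controls. There the drop stood over the central 200 bp, and the flank libraries of the groups overlapped.

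Other windows near closed ones were lower more often than windows near kept ones. Within 50 kb of a closed window, 67 of the 290 other windows that edgeR tested (23.1%) passed as lower and 12 (4.14%) as higher, with a median log2 fold change of -0.31. Around kept windows with no closed window near, 10.5% of 12276 were lower and 8.01% higher, with a median of -0.03. Within 20 kb of a closed window 31 of 112 (27.7%) were lower, and within 100 kb 111 of 518 (21.4%). DESeq2 called 32 lower within 50 kb. Most neighbours thus passed no threshold in either direction. The neighbours were not matched for place. Kept windows lay at gene ends in 57.5% of cases and closed windows in 4.19%. By edgeR, 2.92% of the 8178 tested windows at gene ends were lower, against 10.0% of all 21618 tested windows. Neighbours at gene ends may thus lower the share around kept windows, and how much of the gap this makes was not tested.

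Gene ends nearest to the closed windows were looked at in the same fit. The 205 distal closed windows had 197 nearest genes at any distance, and 92 tested windows lay within 1 kb of an end of 90 of these. Of the 92, 15 (16.3%) were lower and 0 higher by edgeR, with a median log2 fold change of -0.26. With nearest genes within 50 kb only, 7 of 49 (14.3%) were lower and 0 higher, with a median of -0.25. Over all 8178 tested windows at gene ends, 239 were lower (2.92%) and 754 higher (9.22%), with a median of 0.15. At an unadjusted p under 0.05 the 92 held 20 lower and 4 higher windows. DESeq2 called 6 lower and 0 higher, and the edgeR count of lower windows was 9 without RANKL replicate 2, 9 without control replicate 1 and 8 without control replicate 2.

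The 15 lower gene ends, named after their values were seen, were at Galnt7, Pla2g4a, Chrm3, Mtus1, Tox, Olfm4, Ube2e2, Cyria, Nnt, Hmga2, Plcb1, Adgrl2, Flrt3, Sema3c and Spry2. The gene end of Pla2g4a, which holds 2 closed windows in its body, averaged 7.12 CPM with RANKL and 25.8 CPM in controls (edgeR log2 fold change -1.67 ± 0.48, SE, adjusted p = 0.00568). At Spry2, an inhibitor of receptor tyrosine kinase signalling, the gene end averaged 76.9 CPM with RANKL and 124 CPM in controls (log2 fold change -0.57 ± 0.17, adjusted p = 0.00867 by edgeR). At Olfm4 it averaged 17.6 CPM with RANKL and 36.2 CPM in controls (log2 fold change -1.10 ± 0.35, adjusted p = 0.0140 by edgeR). The closed window named by Olfm4 lies 1835665 bp from that gene. The gene-end windows were not chosen by the rule, but they come from the same libraries.

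Closed windows were mostly single. Another closed window lay within 100 kb of 14 of them (6.51%), in 7 pairs, against 2.79% of kept windows. The pairs were nearest Lgr5, Rgmb, Mrtfb, Pla2g4a and Brinp3, and between Fam217b and Cdh26 and between E030018B13Rik and Klf13. The pair at Mrtfb, which encodes a coactivator of serum response factor, was 8909 bp apart. Within 50 kb, 118 closed windows were nearest 116 genes, and no gene had 3 or more.

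Of the 13 gene lists, 5 had a closed window, with 1 to 3 windows each. The lists, which were chosen with results of these data known, were counted over control-open windows 1 to 50 kb from a gene end, where 109 of 2101 windows of any gene closed (5.19%). Crypt stem cell and Wnt target genes had 3 of 17 closed (Lgr5, Sox9 and Aqp4), goblet cell genes 2 of 10 (Foxa1 and Retnlb) and tuft cell genes 1 of 4 (Rgs13). BMP and TGF-beta genes had 1 of 7 (Bmp2) and M cell genes 1 of 6 (Serpinb1a). Intestinal transcription factors had 0 of 26, EGF receptor genes 0 of 14, enterocyte genes 0 of 8, secretory lineage and Notch genes 0 of 8 and fetal or regenerative genes 0 of 7. Cell cycle genes had 0 of 4, Paneth cell genes 0 of 1 and enteroendocrine genes 0 of 1.

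The median log2 ratio of RANKL to control means was -0.35 over the 2101 windows of any gene. It was -0.66 for the crypt stem cell list, -0.98 for goblet, -0.94 for tuft, -0.43 for BMP and TGF-beta and -0.09 for M cell genes. Among lists with no closed window it was -0.78 for the single Paneth cell window, -0.64 for EGF receptor, -0.38 for fetal or regenerative, -0.30 for transcription factor, -0.26 for enterocyte, -0.20 for secretory lineage and Notch, -0.01 for cell cycle and 0.01 for the single enteroendocrine window. With 1 to 26 windows a list, these counts say little about a list.

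Lgr5 encodes the R-spondin receptor that marks crypt stem cells, and it held 2 closed windows in its body, 76487 bp apart. The first, at chr10:115484733-115484932, had 3.10, 10.7 and 18.1 CPM in RANKL replicates 1, 2 and 3, against 60.8, 45.0 and 41.8 CPM in control replicates 1, 2 and 3. The second, at chr10:115561220-115561419, had 6.21, 10.7 and 2.41 CPM with RANKL and 36.9, 43.0 and 43.9 CPM in controls. The second lies closer to the end of A930009A15Rik, a gene inside Lgr5, than to an end of Lgr5. The GFP and toxin receptor cassette of this line sits at this gene in both groups.

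Other Lgr5 windows moved with them. A kept window 21103 bp from the first had 43.5, 25.7 and 25.3 CPM with RANKL and 82.5, 93.2 and 81.3 CPM in controls (log2 fold change -1.51 ± 0.23, SE; edgeR adjusted p = 1.03e-08). A window 1166 bp inside the gene from its end had 9.31, 6.43 and 15.7 CPM with RANKL and 21.7, 35.8 and 22.0 CPM in controls (log2 fold change -1.18 ± 0.44, adjusted p = 0.0384 by edgeR). Outside the gene, windows 99985 bp and 122381 bp away averaged 94.8 ± 6.86 and 66.0 ± 16.4 CPM with RANKL and 88.6 ± 9.04 and 62.8 ± 17.4 CPM in controls (SD, n = 3 each). The tested windows in the Lgr5 body were all lower, and these 2 outside it passed no threshold.

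Sox9 is a transcription factor of crypt progenitors and Paneth cells. Its closed window, 47846 bp outside the gene, had 0, 12.9 and 13.3 CPM with RANKL and 65.2, 39.9 and 48.3 CPM in controls. The window at the gene's own end had 43.5, 36.4 and 42.2 CPM with RANKL and 41.3, 32.8 and 46.1 CPM in controls (log2 fold change 0.11 ± 0.27, SE; edgeR adjusted p = 0.821). The values of the groups overlapped there. The edgeR adjusted p of the 4 other tested windows within 150 kb was 0.115 to 0.951.

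Rgmb had a second closed window 66008 bp from the first, with 18.6, 10.7 and 19.3 CPM with RANKL and 61.9, 50.2 and 39.6 CPM in controls. A kept window in the gene body had 137, 98.6 and 95.4 CPM with RANKL and 131, 135 and 163 CPM in controls (log2 fold change -0.36 ± 0.16, edgeR adjusted p = 0.106). The gene end had 9.31, 42.9 and 41.0 CPM with RANKL and 31.5, 30.7 and 30.8 CPM in controls, and its RANKL libraries lay on both sides of the controls. Neither passed the threshold, while both distal windows met the closing rule.

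Aqp4 encodes a water channel found in crypt base cells. Its closed window, inside the gene, had 9.31, 17.1 and 18.1 CPM with RANKL and 48.9, 42.0 and 43.9 CPM in controls. Of 5 other tested windows within 150 kb, 3 were called lower by edgeR, and the nearest of these, 24857 bp away, averaged 15.0 ± 7.07 CPM with RANKL and 42.0 ± 3.18 CPM in controls (SD, n = 3 each). The others of these 3 lay 59160 and 121156 bp away. Lower windows around Aqp4 were thus not limited to the closed one, but the locus did not move as a whole. The flank of the closed window averaged 31.5 CPM with RANKL and 30.5 CPM in controls. An untested window 39302 bp away was higher with RANKL, at 18.6, 17.1 and 13.3 CPM against 2.17, 2.05 and 0 CPM in controls.

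Foxa1 encodes a forkhead factor of goblet and enteroendocrine cells. Its closed window lies inside Ttc6, 24540 bp outside Foxa1, and had 9.31, 12.9 and 21.7 CPM with RANKL and 55.4, 40.9 and 57.1 CPM in controls. The window in Foxa1 had 102, 62.2 and 67.6 CPM with RANKL and 77.1, 78.8 and 61.5 CPM in controls (log2 fold change 0.03 ± 0.19, edgeR adjusted p = 0.934). A window 141198 bp from the closed one went the opposite way, with 77.6, 62.2 and 67.6 CPM with RANKL and 8.69, 2.05 and 0 CPM in controls (log2 fold change 4.00 ± 0.40, edgeR adjusted p = 1.60e-20). Of 8 other tested windows within 150 kb, edgeR called this 1 higher and 1 lower. The lower window, 128061 bp away, averaged 28.4 CPM with RANKL and 62.7 CPM in controls.

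**Figure D5:**
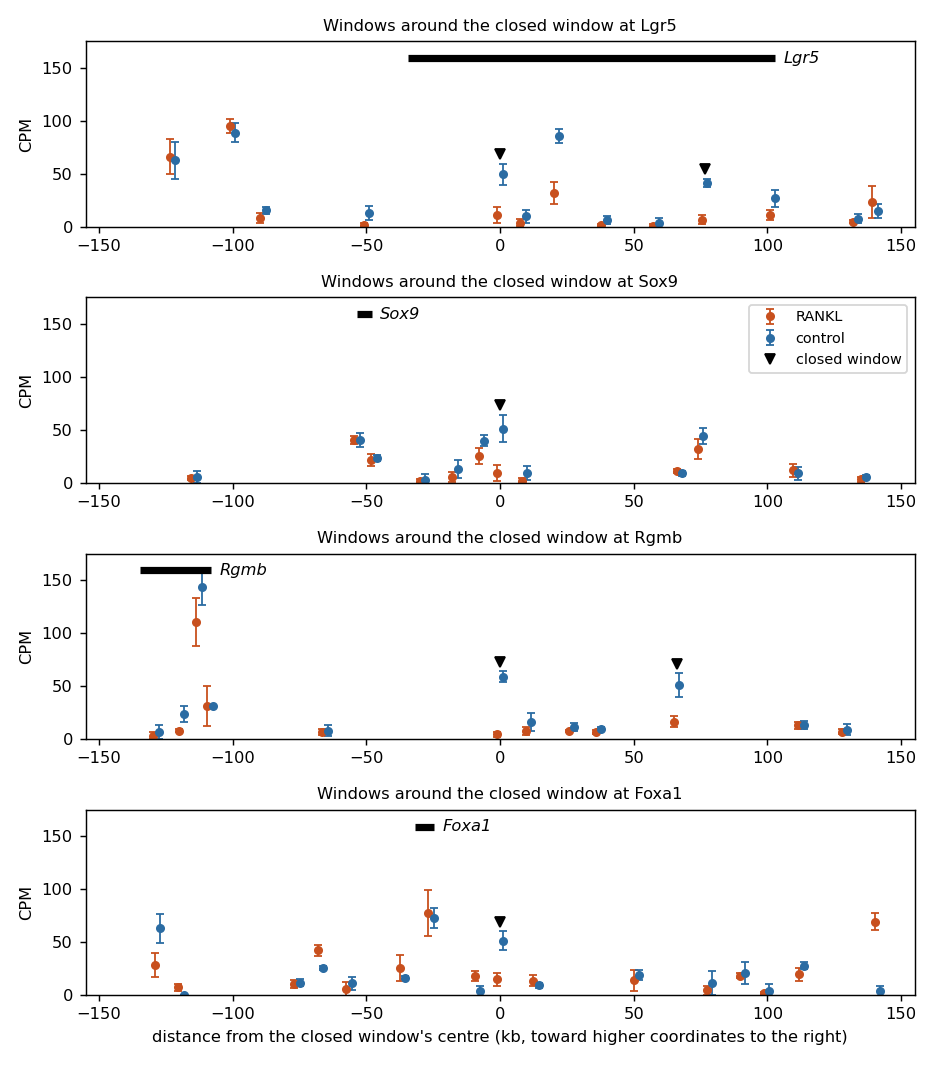
Mean CPM (vertical axis, bars show SD, n = 3 each) of every window within 150 kb of a closed window at Lgr5, Sox9, Rgmb and Foxa1, for RANKL (orange) and control (blue) libraries, by distance from the closed window in kb (horizontal axis; the 2 groups are drawn slightly apart). Triangles mark closed windows and black bars the gene. At Lgr5 a kept window beside the closed one was also lower, at 31.5 CPM with RANKL and 85.7 CPM in controls, while at Sox9 the gene end stood at 40.7 CPM and 40.1 CPM.

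Bmp2 encodes a BMP ligand. Its closed window, 40551 bp outside the gene, had 3.10, 15.0 and 7.24 CPM with RANKL and 48.9, 39.9 and 41.8 CPM in controls. Only 7514 bp away, another window had 37.2, 42.9 and 47.1 CPM with RANKL and 7.60, 10.2 and 4.39 CPM in controls (log2 fold change 2.46 ± 0.41, SE; edgeR adjusted p = 1.26e-07). Of 11 other tested windows within 150 kb, edgeR called 3 higher and 1 lower. Windows on the same side of the same gene thus moved in opposite directions.

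Id2, an inhibitor of basic helix-loop-helix factors, was the nearest gene of a closed window 113366 bp away, which had 6.21, 19.3 and 21.7 CPM with RANKL and 68.4, 54.3 and 68.1 CPM in controls. The naming rule took this window because 7 of its bases lie on the promoter of Gm36441. The Id2 gene end averaged 86.4 ± 17.3 CPM with RANKL and 78.7 ± 14.3 CPM in controls (SD, n = 3 each; edgeR adjusted p = 0.596). Within 150 kb, 3 of 8 other tested windows were called lower by edgeR.

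Of the remaining listed genes, Retnlb encodes a goblet cell peptide and had a closed window 7781 bp outside the gene, with 12.4, 6.43 and 14.5 CPM with RANKL and 44.5, 33.8 and 50.5 CPM in controls. Rgs13, a regulator of G protein signalling found in tuft cells, had one at 21080 bp, with 9.31, 6.43 and 18.1 CPM with RANKL and 71.7, 61.4 and 59.3 CPM in controls. Serpinb1a, a protease inhibitor gene of the M cell list, had one in its body, with 18.6, 17.1 and 21.7 CPM with RANKL and 63.0, 38.9 and 72.5 CPM in controls. The last is a window that was lower with RANKL near a gene of the cell type that RANKL induces. The edgeR adjusted p was 0.138 and 0.232 for the 2 other tested windows within 150 kb of the Rgs13 one, and 0.0757 to 0.820 for the 3 of the Serpinb1a one. Among windows near Serpinb1a that missed the count filter, some were higher with RANKL. The one 13253 bp from the closed window averaged 27.5 CPM with RANKL and 1.44 CPM in controls. Those at 89122 and 125801 bp averaged 21.4 and 18.8 CPM with RANKL and 3.86 and 0.73 CPM in controls. Their groups did not overlap, and in no untested window there did every RANKL library lie below every control. These windows were picked after their values were seen, and the share of all untested windows that stand apart in this way was not counted. Such windows were not particular to Serpinb1a. An untested window 8432 bp from the closed one at Foxa1 averaged 17.7 CPM with RANKL and 3.65 CPM in controls, also without overlap. Near Rgs13, untested windows went both ways.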

How the data were processed

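The treatment label put 3 ATAC-seq libraries in the RANKL group and 3 in the control group. Counts of raw reads in 55056 windows of 200 bp were deposited by the authors, as was a score for 2-kb windows on 55050 of those centres. The deposited score equals ln(count + 1), centred and scaled by library, judged from its values: undoing this gave 2-kb counts at most 0.0074 from whole numbers. The build was mm10 (GRCm38), and MACS2 2.2.7, DESeq2 1.34.0, BWA 0.7.17, fastp 0.20.1 and Picard were tools in use, per the submitters' processing notes. The choice of windows, the counting, Tn5 shifts and duplicate removal were not given in the sources used here.

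CPM is a count as a share of the library's total over the windows, in parts per 1e6. Flank counts are the 2-kb count minus the 200-bp count, with a pseudocount of 1 CPM on the log2 scale. The test across windows was edgeR 4.0.16 in R 4.3.3 (TMM, filterByExpr, robust quasi-likelihood fit, adjusted p at or under 0.05). DESeq2 1.42.0 was an alternative, with the replicate block, other thresholds and left-out libraries. On simulated counts of 21618 windows for this comparison the edgeR step recovered 56 of 100 windows made 4-fold lower and 23 of 100 made 2-fold lower, and called 6 unchanged windows. The changed windows were drawn at random from all tested windows, so these rates do not describe windows with a control mean of at least 40 CPM. The labels give both groups the experiment numbers 1 to 3. Deviations from the group means of same-numbered libraries correlated at -0.06, 0.01 and -0.03 across windows. Libraries of different numbers correlated at -0.05 to 0.06. Low counts could hide a shared effect of an experiment, so these values do not decide whether the numbers pair the libraries.

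Starts of windows were read as 0-based and are printed 1-based. Gene positions and promoters came from RefSeq tables of GRCm38.p6, and the promoter table lacks some genes. Windows are named by the nearest end of a protein-coding gene, with no distinction of exon, intron or UTR. No genome sequence was used, so most closed windows are given without sequence. The windows, gene lists and tests were chosen with earlier results of these data known. The named windows are the 12 of lowest ratio, the 5 of highest control mean, the 5 on each side of the threshold, those within 50 kb of a listed gene, those on a promoter and the 3 lowest and 3 highest flanks. A window that this rule takes is not reported here.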

Additional observations from a re-analysis of the deposited data

How the results depend on the processing

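The rule found 639 windows when RANKL had to be at most 1/2 of control and 90 at 1/4. It found 794 with both control limits at 1/2 and 14 with both at 2 times their value. TMM-adjusted sizes gave 178, all of them among the 215, and leaving out each library gave 199 to 272. The share more than 1 kb from a gene end was 94.0% to 96.3% without each library, 87.9% when all genes of the table counted, and 87.4% lay more than 5 kb away. The median flank difference was -1.25 to -1.18 without each library, -1.05 with a pseudocount of 5 CPM and -0.97 when scaled by the 200-bp totals. DESeq2 called 1039 windows lower in all, 212 of the closed ones, 32 neighbours within 50 kb and 6 gene ends of nearest genes, and all 215 closed windows were called under each other alternative. Leave-one-out counts were 1475 to 2229 lower windows in all, 45 to 72 neighbours within 50 kb and 8 to 14 gene ends. Neighbours called lower numbered 31 within 20 kb and 111 within 100 kb, which hold fewer and more windows. The causes of the other shifts were not tested.

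The experiment number as a replicate block gave 1827 lower windows in all, 215 closed windows, 53 neighbours and 12 gene ends, so the block moved no count by over 1.5 times. The gene-end count with its alternatives and the reading with a library of each group left out were added after seeing the data. Counts are low, with a median of 23 reads over the RANKL libraries of a closed window, so depth limits the order of the strongest drops.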
